A study of Caenorhabditis elegans with 24 samples.

Results

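The response of *C. elegans* to the loss of RAGA-1 in all somatic tissues was set against the response to its loss in neurons alone, gene by gene. For each gene, the log2 change with auxin in the strain RAGA-1::AID Somatic (the somatic response) had the log2 change with auxin in RAGA-1::AID Neuronal (the neuronal response) subtracted from it, and the result is called the difference. A positive difference means a larger rise, or a smaller fall, after somatic AID. The table lists 21982 genes, and the test took in the 13150 that reached 10 normalized counts in 4 or more of all 24 libraries. Since a group holds 4 libraries, a low gene can enter the test through the group where it is high. In limma, 1477 of them (11.2%) had an adjusted p (Benjamini-Hochberg) no higher than 0.01 and are called here, with 686 differences positive (5.22%) and 791 negative (6.02%). A normalized count is a gene's read count divided by the size factor of its library, and levels below are on this scale, while changes and differences are on the scale of log2(normalized count + 1), which understates the changes of genes with few counts.

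Animals were adults of 3 strains, kept with 0.15 mM auxin or on control plates with its ethanol solvent from day 1 of adulthood and frozen on day 3, with about 400 worms in each sample and 4 samples in each of 6 groups. Both AID strains carry the allele raga-1(wbm40), in which a degron and EmGFP are fused to endogenous *raga-1*, also in their no-auxin groups. RAGA-1::AID Neuronal (WBM1250) expresses the plant F-box protein TIR1 from the *rab-3* promoter (wbmIs83), which is active throughout the nervous system. RAGA-1::AID Somatic (WBM1438) expresses TIR1 with mRuby from the *eft-3* promoter (ieSi57), which is active in somatic tissues and not in the germline. N2 Bristol animals without tag or TIR1 were the wild type. The AID strains thus differ in the TIR1 transgene as well as in the tissue. According to the study the somatic strain degrades some RAGA-1 without auxin. The methods place the 4 replicates on separate days and separate thaws of the strains.

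RAGA-1 is a Rag GTPase that brings the kinase complex mTORC1 to the lysosome when amino acids are plentiful. There mTORC1 promotes protein and lipid synthesis and holds back autophagy and lysosomal breakdown. In worms, loss of *raga-1* slows growth and lengthens life. In the AID system, auxin lets TIR1 bind a degron and mark the tagged protein for the proteasome, so a loss of RAGA-1 protein need not show in its mRNA.

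The *raga-1* mRNA was 1675, 1747, 1614 and 1664 normalized counts in RAGA-1::AID Neuronal without auxin and 1655, 1652, 1611 and 1552 with it, with 1646, 1741, 1707 and 1655 without auxin and 1478, 1628, 1412 and 1457 with auxin in RAGA-1::AID Somatic. It fell with auxin in the somatic strain (log2 change -0.18, adjusted p = 0.0017), but its difference of -0.13 was not called (adjusted p = 0.14). Depth was 16982857 to 41671106 reads in the 16 AID libraries. In the 4 somatic AID auxin libraries the 10 most abundant genes held 21.6% to 25% of all counts, against 13.7% to 18% in the other 20. The part of this in the differences was not tested beyond other scalings. The median difference over all genes was -0.01, and it was 0 with TMM and -0.04 with quantile normalization. With auxin in wild type animals no gene was called by limma and 303 had an unadjusted p under 0.05, and the median change was 0.01 among the genes with a positive difference and 0 among those with a negative one.

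Most of the 1477 genes changed after somatic AID with little change after neuronal AID. Among the 686 genes with a positive difference, the median difference was 0.82, with a median somatic response of 0.78 and a median neuronal response of 0.02. Among the 791 with a negative difference the median was -0.21, with medians of -0.24 and -0.02. The called positive side held wide changes in moderately expressed genes (a median level of 289 normalized counts over the AID libraries, beside 338 for all genes tested). The called negative side held small changes in abundant genes (3220 normalized counts). The median standard error of the difference was 0.17 on the positive side, 0.04 on the negative side and 0.15 over all genes. Small changes can be called only where the standard error is small, so this contrast depends in part on detection. A difference of at least 1 in size, which is 2-fold on this scale, was reached by 238 of the positive and 30 of the negative genes. The somatic response itself was called in 1425 of the 1477 genes and the neuronal response in 29, beside 16% of all genes that rose and 19.6% that fell after somatic AID and 0.441% called after neuronal AID. At an unadjusted p under 0.05 in limma there were 7161 of all genes after somatic and 1903 after neuronal AID. These counts share their libraries with the difference and describe it only. The smallest called differences in size were 0.09 among negative and 0.14 among positive genes, and at the threshold *M02D8.3* (difference 0.31) lay just inside and *tax-6* (0.31) just outside. Without somatic AID auxin replicate 4, 523 genes had a negative difference in place of 791.

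**Figure D1:**
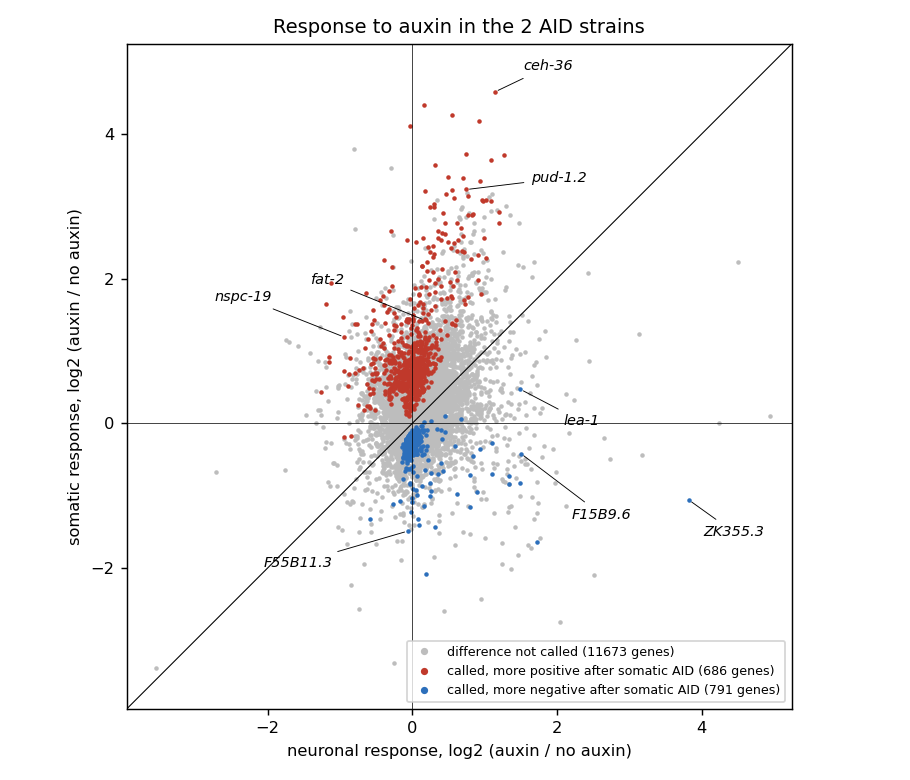
Neuronal response (x axis) against somatic response (y axis), both as log2 of auxin over no auxin, for each of the 13150 genes tested (points). Red points are the 686 genes with a called positive difference, blue points the 791 with a called negative one, and grey points the 11673 not called. On the black diagonal the responses are equal. Red points spread upward near a neuronal response of 0, while most blue points lie close to the origin.

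The 5 genes with the smallest adjusted p of the difference all rose after somatic AID, and none passed the test after neuronal AID. *B0513.4* had 3528, 3407, 3502 and 3447 normalized counts in RAGA-1::AID Neuronal without auxin and 3673, 3869, 3779 and 3696 with it. In RAGA-1::AID Somatic it had 3477, 3338, 3317 and 3248 without and 5413, 5379, 5499 and 5508 with auxin, a difference of 0.59 (standard error 0.04, limma adjusted p = 2.9e-09). The groups did not overlap in either strain, though the neuronal change of 0.11 was not called (adjusted p = 0.029). *far-2*, which encodes a secreted protein that binds fatty acids and retinol, had 38440, 39230, 40030 and 40600 normalized counts in the neuronal strain without auxin and 42730, 39420, 41800 and 40700 with auxin. It had 39310, 39990, 38960 and 36880 without auxin in the somatic strain and 60800, 61900, 63320 and 61680 with it, for a difference of 0.62 (standard error 0.04, limma adjusted p = 4.7e-09). Here the neuronal groups overlapped, and the somatic ones were far apart. *spp-15*, a gene of the saposin-like family, whose products bind membrane lipids, had 613, 596, 627 and 612 normalized counts in the neuronal strain without auxin and 641, 661, 649 and 661 with auxin. Its counts were 589, 568, 589 and 594 without and 1141, 1008, 1038 and 1134 with auxin in the somatic strain, a difference of 0.79 (standard error 0.06, limma adjusted p = 3.9e-08). The other 2 genes, *fat-2* and *egl-3*, are given with their groups below.

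Of the 7 desaturase genes *fat-1* to *fat-7*, whose enzymes put double bonds into fatty acids, *fat-1*, *fat-2* and *fat-4* had called positive differences. The other 4 were not called, with *fat-3* at 0.91, *fat-5* at -0.36, *fat-6* at -0.04 and *fat-7* at 1.22. *fat-2* encodes the desaturase that turns oleic into linoleic acid, and *fat-1* the omega-3 desaturase. *fat-2* had 8754, 10220, 9130 and 9030 normalized counts in RAGA-1::AID Neuronal without auxin and 10470, 11290, 10140 and 10280 with it. It had 7846, 8704, 8268 and 8313 without auxin and 23170, 21940, 20420 and 23290 with auxin in RAGA-1::AID Somatic. The lowest of the 4 somatic AID auxin libraries was thus above the highest of the other 12, for a difference of 1.24 (standard error 0.08, limma adjusted p = 4.7e-09). *fat-4*, a desaturase that acts later in the chain, went from 4340 ± 68 normalized counts (SD, n = 4) to 8552 ± 1050 in the somatic strain and had means of 4701 and 4702 in the neuronal one, with a difference of 0.97 (adjusted p = 3.6e-07). The difference of *fat-1* was 0.85 (adjusted p = 2.6e-05). In the list of fatty acid and fat synthesis, 9 of 56 tested genes had a called positive difference and 5 a negative one, with a median of 0.05. Acyl-CoA synthetases, which activate fatty acids, went both ways, with *acs-3* at 1.57 and *acs-14* and *acs-5* also positive, and *acs-4*, *acs-13* and *acs-20* negative. Of 59 genes of fatty acid breakdown and binding, 5 were called positive and 1 negative, with a median of 0.03. The lipid-binding protein gene *lbp-2* was positive (difference 0.58, adjusted p = 3.1e-06), with *lbp-1* and *lbp-3*, and *lbp-9* was negative (difference -0.30, adjusted p = 0.00025).

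The vitellogenins, yolk proteins that the intestine makes and oocytes take up, were among the most abundant transcripts of all. *vit-2* had 749300, 670200, 715500 and 748000 normalized counts without auxin and 819700, 732500, 744400 and 707000 with auxin in the neuronal strain. In the somatic strain it had 753000, 648000, 689300 and 709100 without and 1426000, 1346000, 1382000 and 1440000 with auxin, and only the last group stood apart. The differences were 0.94 (adjusted p = 2.8e-07) for *vit-2*, 0.79 (adjusted p = 1e-06) for *vit-5* and 0.93 (adjusted p = 9.5e-06) for *vit-6*, so 3 of the 6 tested vitellogenin genes were called, while *vit-1*, *vit-3* and *vit-4* had differences of 0.74, 0.53 and 0.34 that were not. Quantile normalization ended all 3 calls and turned the direction of *vit-5* (-0.06) and *vit-6* (-0.10), since it gives the most abundant genes of each library the same values. These genes are close in sequence, and how reads were split among them was not tested.

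**Figure D2:**
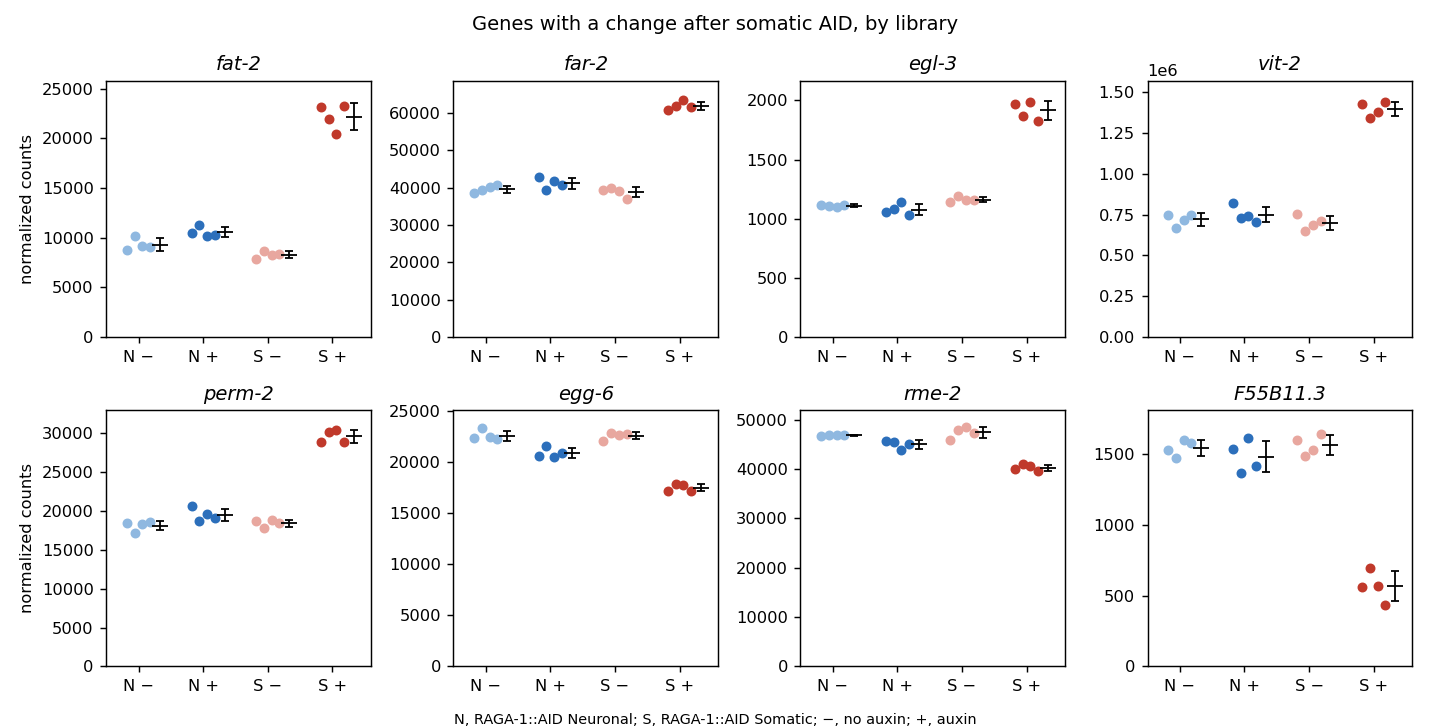
Normalized counts (y axis, from 0) of 8 genes in each library (points) of the 4 AID groups (x axis, N for RAGA-1::AID Neuronal, S for RAGA-1::AID Somatic, − without and + with auxin), with the group mean and SD beside them (n = 4). In *fat-2*, *far-2*, *egl-3*, *vit-2* and *perm-2* the somatic AID auxin libraries all lie above the other 12, and in *egg-6*, *rme-2* and *F55B11.3* all lie below them.

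V-ATPase and cathepsin genes had positive differences more often than other genes, a contrast that was not tested. The V-ATPase acidifies the lysosome and cathepsins are its proteases, though members of the list need not all act there. Of the 42 genes tested, 15 had a called positive difference (35.7%, beside 5.22% of all genes) and 2 a negative one, with a median of 0.24. The cathepsin gene *cpz-1* had 3046, 2621, 3033 and 3196 normalized counts in the neuronal strain without auxin and 3232, 3088, 3112 and 3059 with auxin. It had 3037, 2380, 2757 and 2887 without auxin and 5525, 4650, 5886 and 5784 with auxin in the somatic strain, where the groups did not overlap, and a difference of 0.91 (standard error 0.12, limma adjusted p = 2.6e-05). The aspartic protease gene *asp-14* reached one of the widest differences, 2.32 (adjusted p = 0.00045), with 233, 458, 439 and 416 normalized counts in the somatic strain without auxin and 1943, 2461, 3216 and 2715 with it. Its neuronal counts were 289.9, 576, 667 and 556 without and 436, 741, 828 and 799.9 with auxin, which overlapped. The differences were 0.97 (adjusted p = 4.3e-05) for *asp-5*, 0.77 (adjusted p = 0.00014) for the cathepsin L gene *cpl-1* and 0.85 (adjusted p = 0.00051) for *vha-6*, a V-ATPase subunit gene of the intestine. Of the 28 lysozyme and saposin genes tested, 6 were called positive, among them *spp-14* (difference 0.69, adjusted p = 0.00015) and *spp-5* (difference 0.75, adjusted p = 0.00021). Without somatic AID auxin replicate 1, 9 of the 42 V-ATPase and cathepsin genes and 3 of the 28 lysozyme and saposin genes were called positive. The 28 gave 3 as well without somatic AID auxin replicate 4, neuronal AID no auxin replicate 4 or neuronal AID auxin replicate 3.

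Genes of amino acid breakdown went the same way, with 21 of 46 rising and 4 falling after somatic AID and none called after neuronal AID. Over all genes, 16% rose and 19.6% fell after somatic AID. After neuronal AID 0.441% of all genes were called, so the absence of calls there is near that share. Of these 46 genes, which act on tyrosine, tryptophan and other amino acids, 11 were called positive (23.9%) and none negative, with a median of 0.25. *hpd-1*, the dioxygenase early in tyrosine breakdown, had 2199, 1778, 2297 and 2285 normalized counts in the neuronal strain without auxin and 2054, 1901, 2058 and 2141 with auxin. In the somatic strain it had 1673, 1461, 1811 and 1911 without and 4866, 3180, 4718 and 5595 with auxin, where replicate 2 was the lowest and still above every library without auxin. Its difference was 1.46 (standard error 0.17, limma adjusted p = 8.5e-06). Of the genes that follow it in the pathway or act on tryptophan, *hgo-1* (homogentisate dioxygenase) differed by 0.59 (adjusted p = 3.2e-05), *tdo-2* (tryptophan dioxygenase) by 0.93 (adjusted p = 7e-05) and *kynu-1* (kynureninase) by 0.78 (adjusted p = 0.0004). The count was 7 of 46 without somatic AID auxin replicate 1 or 4, neuronal AID no auxin replicate 4 or neuronal AID auxin replicate 3.

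Intestinal markers had positive differences as well, in part through genes shared with the lists above, such as *vit-6* and *vha-6*. Of 22 marker genes of the intestine, 9 had a called positive difference (40.9%) and none a called negative one, with a median of 0.65 and no marker at 0 in any group. Without regard to calls, 17 lay above 0 and 5 below, down to -1.46. Their summed level was 1350000 to 1500000 normalized counts in the somatic AID auxin libraries, against 626000 to 807000 in the same strain without auxin, 783000 to 859000 after neuronal AID and 692000 to 800000 in its controls, and the yolk gene *vit-6* alone had a mean of 1365000 in the first of these groups. *elt-7*, a GATA factor of the intestine, differed by 0.99 (adjusted p = 0.00017) and *pept-1*, the intestinal peptide transporter, by 1.44 (adjusted p = 0.0011), while *ges-1*, the gut esterase, did not pass (-0.32, adjusted p = 0.13). The count fell to 5 of 22 without somatic AID auxin replicate 4 or neuronal AID no auxin replicate 4. RNA came from whole animals, so more RNA per cell and a larger share of a tissue in the animal cannot be told apart, here or in the groups that follow.

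Neuropeptide genes rose after somatic AID and did not pass the test after neuronal AID. Neurons are among the tissues with TIR1 in both strains, but from different promoters. The loss of RAGA-1 in neurons was not compared between the strains here. Of 88 precursor genes of the FMRFamide-like (flp) and neuropeptide-like (nlp) families, 23 were called positive (26.1%) and none negative, 82 lay above 0, and the median was 0.67. The median somatic response of these genes was 0.64 and the median neuronal response -0.04. After somatic AID 57 of the 88 rose and none fell, beside 16% and 19.6% of all genes. After neuronal AID none was called, which is near the 0.441% of all genes called there. *nlp-14* had 138, 150.2, 143 and 135 normalized counts in the neuronal strain without auxin and 117, 126.5, 133 and 113 with it, lower with auxin in every library but not called. It had 141, 150.4, 136 and 118 without auxin and 239, 204, 243 and 215 with auxin in the somatic strain, a difference of 0.93 (standard error 0.12, limma adjusted p = 1.9e-05). *flp-22* and *flp-8* had differences of 0.86 (adjusted p = 0.00014) and 1.18 (adjusted p = 0.00037). The widest was that of *nlp-39*, with 22.4, 57.4, 43.5 and 33.4 normalized counts in the neuronal strain without auxin and 41.6, 118, 72.9 and 45.8 with auxin. Its somatic counts were 15.9, 42.5, 39.4 and 24.3 without and 191, 366, 234.4 and 269 with auxin, for a difference of 2.37 (standard error 0.49, limma adjusted p = 0.0016). Under quantile normalization 10 neuropeptide genes were called positive and 1 negative.

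The enzymes that cut neuropeptides out of their precursors moved in the same direction. *egl-3* encodes the proprotein convertase that makes the first cuts, *egl-21* the carboxypeptidase that trims the ends, *pgal-1* an enzyme of their amidation and *sbt-1* the chaperone of the convertase. *egl-3* had 1117, 1111, 1098 and 1119 normalized counts in RAGA-1::AID Neuronal without auxin and 1054, 1084, 1137 and 1030 with auxin. In RAGA-1::AID Somatic it had 1145, 1188, 1156 and 1157 without auxin and 1972, 1872, 1989 and 1826 with auxin, so all 4 somatic AID auxin libraries lay above the other 12, with a difference of 0.77 (standard error 0.06, limma adjusted p = 3.9e-08). The differences of *pgal-1*, *sbt-1* and *egl-21* were 0.72 (adjusted p = 1e-05), 0.68 (adjusted p = 3e-05) and 0.47 (adjusted p = 5.8e-05). In the marker list of neurons, which holds these genes with those of synaptic vesicles and transmitter synthesis, 13 of 41 were called positive (31.7%) and 2 negative, and the median was 0.34. The summed level of the list was 38100 to 39300 normalized counts after somatic AID against 34800 to 37300 in its controls, and 33400 to 34100 after neuronal AID against 32700 to 33000, with no marker at 0 in any group. Transmitter synthesis was mixed. *unc-25* (GABA) and *cat-4* (cofactor of dopamine and serotonin synthesis) had differences of 0.91 and 0.53, and *tdc-1* (tyramine) was called negative. Among receptors, of 59 neuropeptide receptor genes 2 (3.4%) were called positive, *sprr-2* and *npr-28*, and of 82 genes of ligand-gated channels and transmitter receptors 1 (1.2%), *glc-1*, and their median differences were 0.25 and 0.26. The first count was 0 without any 1 of 7 AID libraries and the second 4 without somatic AID auxin replicate 2. Of 16 insulin-like genes, *ins-30* (difference 2.00, adjusted p = 0.00096) and *daf-28* (difference 1.09, adjusted p = 0.007) were called, and *daf-28* kept its call without 5 of the 16 AID libraries and lost it without any of the other 11, with an adjusted p of up to 0.018 (without somatic AID auxin replicate 1).

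**Figure D3:**
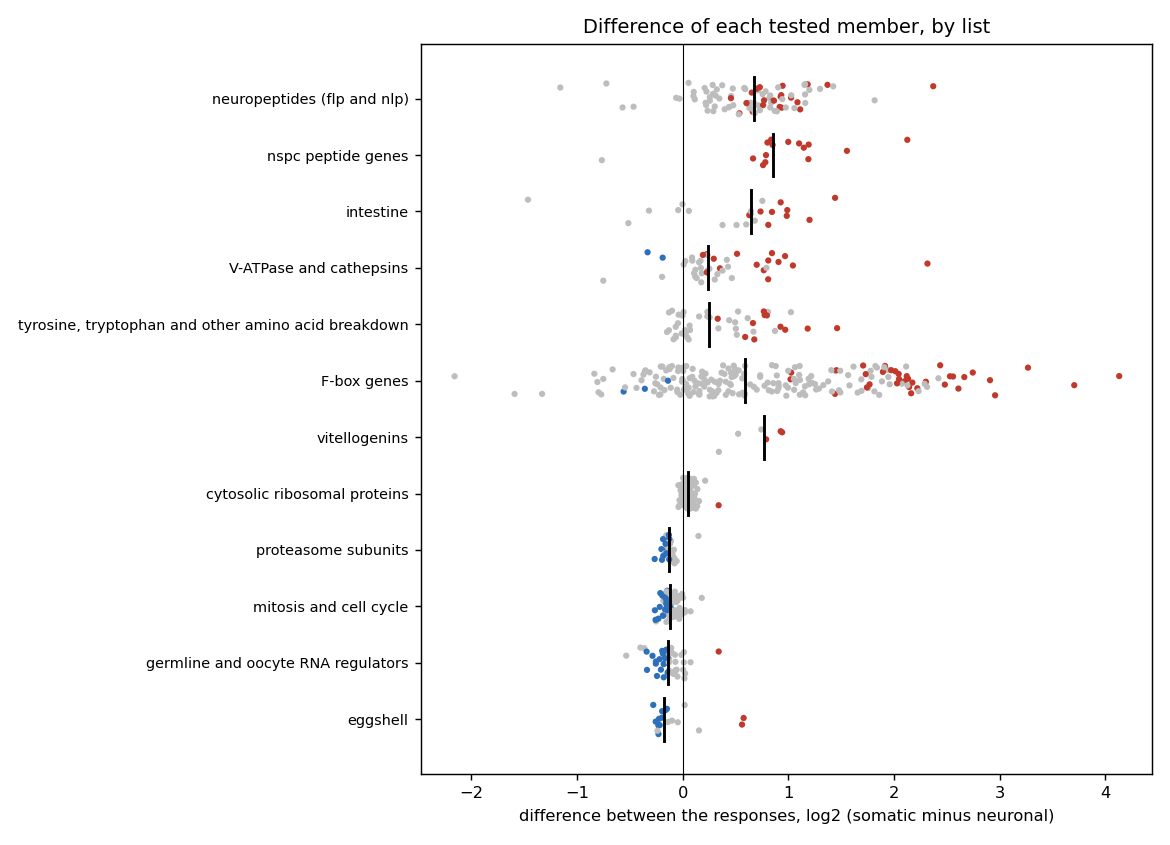
Difference between the responses (x axis, log2, somatic minus neuronal) of each tested member (points, spread vertically at random within a row) of 12 lists (rows). Red points were called positive, blue points called negative and grey points not called, and the black bar is the median of the list. The neuropeptide row is centred on 0.67, cytosolic ribosomal proteins on 0.05, and the germline and eggshell rows lie at small negative values with few exceptions.

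Genes of the germline and of cell division had small negative differences. Of 49 germline and oocyte RNA regulators, 19 were called negative (38.8%, beside 6.02% of all genes) and 1 positive, with a median of -0.14. *rme-2*, the receptor through which oocytes take up yolk, had 46610, 46860, 46980 and 46850 normalized counts in the neuronal strain without auxin and 45610, 45430, 43750 and 45150 with auxin. It had 45940, 47910, 48430 and 47340 without auxin and 39930, 41010, 40510 and 39510 with auxin in the somatic strain, a difference of -0.18 (standard error 0.03, limma adjusted p = 0.00014). The levels were lower with auxin in both strains without overlap, and the fall was called in the somatic strain alone. The P granule gene *meg-3* and the RNA-binding gene *puf-8* differed by -0.25 (adjusted p = 5.8e-05) and -0.24 (adjusted p = 0.00015). The summed level of these markers was 657000 to 696000 normalized counts after somatic AID against 747000 to 760000 in its controls, and 710000 to 726000 after neuronal AID against 739000 to 744000, with no marker at 0 in any group. Degradation was not directed to the germline in either strain. Of 69 genes of mitosis and the cell cycle, 21 were called negative (30.4%) and none positive, such as *smc-6* (difference -0.23, adjusted p = 1.3e-05), *plk-2* (difference -0.26, adjusted p = 8.3e-05) and *spd-2* (difference -0.15, adjusted p = 0.00021), with a median of -0.12 and 64 of 69 below 0. Under quantile normalization 5 were called negative.

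Eggshell genes split into opposite directions. Of 18 tested, 10 were called negative (55.6%) and 2 positive, with a median of -0.18. *egg-6*, needed for an intact eggshell, had 22340, 23290, 22410 and 22220 normalized counts in the neuronal strain without auxin and 20580, 21570, 20430 and 20860 with it. It had 22030, 22820, 22640 and 22680 without and 17180, 17850, 17680 and 17160 with auxin in the somatic strain, so it fell in both, by 0.11 and 0.37 on the log2 scale, and the difference was -0.25 (standard error 0.03, limma adjusted p = 9e-06). The chitin synthase gene *chs-1* differed by -0.28 (adjusted p = 1.7e-05). *perm-2* and *perm-4*, needed for the permeability barrier of the eggshell, rose instead. *perm-2* had 18450, 17210, 18290 and 18580 normalized counts in the neuronal strain without auxin and 20600, 18740, 19640 and 19110 with auxin, and 18690, 17810, 18850 and 18420 without auxin and 28900, 30230, 30420 and 28960 with auxin in the somatic one. Its difference was 0.58 (standard error 0.05, limma adjusted p = 1.1e-07), and that of *perm-4*, which lies close to it on chromosome IV, was 0.56 (adjusted p = 9.8e-08).

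In the somatic response 29 of 33 proteasome genes fell, as did 16 of 35 genes of ribosome biogenesis in the nucleolus and 17 of 66 mitochondrial ribosomal protein genes, and 6 of 79 cytosolic ribosomal protein genes rose. Over all genes tested, 19.6% fell and 16% rose. The count of mitochondrial ribosomal protein genes was thus near the share of all genes, and that of the cytosolic ones under it. Of the 33 proteasome subunit genes, 11 were called negative (33.3%) and none positive, 32 lay below 0, and the median was -0.13. *pas-7*, a subunit of the proteasome core, had 5508, 5550, 5705 and 5458 normalized counts in the neuronal strain without auxin and 5284, 5279, 5170 and 5336 with auxin. In the somatic strain it had 5498, 5737, 5853 and 5852 without and 4581, 4375, 4710 and 4448 with auxin, with a difference of -0.26 (standard error 0.04, limma adjusted p = 3.1e-05). The lid subunits *rpn-8* and *rpn-11* differed by -0.19 (adjusted p = 0.00037) and -0.18 (adjusted p = 0.0004). The count of proteasome genes was 7 without somatic AID auxin replicate 1 or 4, neuronal AID auxin replicate 1 or neuronal AID no auxin replicate 2 or 3, and 5 with quantile normalization. Of 79 cytosolic ribosomal protein genes, 1 was called, *rpl-25.1* (difference 0.34, adjusted p = 0.0023), and the median was 0.05. Among 35 genes of ribosome biogenesis in the nucleolus, *nol-10*, *pro-1*, *rpoa-2* and *pro-2* had called negative differences (11.4%), with a median of -0.12, and 7 were called without somatic AID no auxin replicate 4. Among 32 tRNA synthetase genes, *vars-1*, *tars-1*, *nars-1* and *lars-2* were called negative (12.5%), led by *vars-1* at -0.40 (adjusted p = 7.3e-05). In 53 genes of oxidative phosphorylation, *cox-16* was called positive and *atp-2* negative, with a median of -0.01.

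Among called genes that averaged 50 or more normalized counts over the AID libraries, most of the 10 largest negative differences belonged to no list. *F55B11.3* had 1530, 1472, 1601 and 1583 normalized counts in the neuronal strain without auxin and 1535, 1369, 1614 and 1419 with auxin, 1603, 1485, 1529 and 1647 in the somatic strain without auxin and 561, 694, 572 and 434 with it. All 4 somatic AID auxin libraries lay below the other 12, and the difference was -1.43 (standard error 0.12, limma adjusted p = 1.1e-07). *rif-1.2* had 44, 74, 57.5 and 78.5 normalized counts in the neuronal strain without auxin and 64.7, 93.1, 68 and 85.2 with auxin. It fell from 58.7, 74.7, 75.3 and 58.1 to 21.9, 23, 27.3 and 23.6 in the somatic strain, for a difference of -1.74 (standard error 0.28, limma adjusted p = 0.00024). *cdr-4*, a gene known for its induction by cadmium, had 794, 1298, 992 and 787 normalized counts in the somatic strain without auxin and 415, 488, 269 and 366 with auxin, beside 846, 712, 581 and 948 without auxin and 948, 672, 602 and 1053 with auxin in the neuronal strain. Its difference was -1.40 (standard error 0.34, limma adjusted p = 0.005), and the call was lost when any 1 of 8 AID libraries was left out, with an adjusted p of up to 0.013 (without neuronal AID no auxin replicate 3). The difference of *F15B9.6*, at -1.92 (standard error 0.48, limma adjusted p = 0.0062), came mostly from the neuronal strain, where its response was 1.5 (adjusted p = 0.023). It had 174, 339, 143 and 286 normalized counts in the neuronal strain without auxin and 452, 868, 519 and 770.0 with it, and 243, 441, 270.1 and 341 without auxin and 298, 289.9, 98.8 and 355.0 with auxin in the somatic strain, where the groups overlapped. That call was lost in a fit of the 16 AID libraries alone and without any 1 of 6 AID libraries, with an adjusted p of up to 0.016 (without neuronal AID no auxin replicate 3). The other 6 of the 10 were *clec-145*, *F21C10.11*, *T12B5.15*, *kcc-3* (a potassium chloride cotransporter), *C08G9.2* and *F56A8.9*, at -1.32 to -1.08.

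Among the largest positive differences were genes that lie next to each other. *C10C5.3*, *C10C5.4* and *C10C5.5* follow one another on chromosome IV (WBcel235, 9374829 to 9383189). *C10C5.5* had 222, 93.9, 93.2 and 126.1 normalized counts in the neuronal strain without auxin and 169.9, 85.7, 79.8 and 71.4 with auxin. In the somatic strain it had 213, 60, 77.7 and 157 without and 644, 336, 555 and 700.3 with auxin, a difference of 2.64 (standard error 0.55, limma adjusted p = 0.0018). *C10C5.4* had 428, 283, 318 and 328 normalized counts in the neuronal strain without auxin and 343, 269, 255 and 217 with auxin. It had 379, 200.2, 224 and 364 without auxin and 1125, 817, 1017 and 1047 with auxin in the somatic strain, with a difference of 2.15 (standard error 0.26, limma adjusted p = 1e-05). *C10C5.3* had 579.8, 203, 257 and 359.7 normalized counts without auxin and 352, 150.2, 147 and 156 with auxin in the neuronal strain. Its somatic counts were 572, 274, 329 and 483 without and 1260, 883, 923 and 1091 with auxin, with a difference of 2.16 (standard error 0.50, limma adjusted p = 0.0039). The call of *C10C5.3* was lost without somatic AID no auxin replicate 2 or without somatic AID auxin replicate 1, with an adjusted p just above the threshold, and in replicates 1 and 4 alone (difference 2.12, limma adjusted p = 0.024). In all 3, replicate 1 was the highest library of each of the 3 groups other than somatic AID auxin. On chromosome V (2322038 to 2329954), the genes *pud-1.2*, *pud-2.2*, *pud-3* and *pud-4*, named for proteins more abundant in long-lived *daf-2* mutants, had differences of 1.72 to 2.49. *pud-1.2* had 1759, 1450, 1978 and 1541 normalized counts in the neuronal strain without auxin and 3278, 3069, 3160 and 1914 with auxin, 1441, 232, 492 and 1102 in the somatic strain without auxin and 7377, 5111, 6681 and 5634 with it, and a difference of 2.49 (standard error 0.48, limma adjusted p = 0.001). Among the somatic controls replicate 2 was far below replicate 1. Genes of 1 cluster can be close in sequence and may share reads, which makes the split among them uncertain. *fat-1*, *Y67H2A.9*, *fat-2* and *far-6*, a gene of the same family as *far-2*, formed another run of neighbours on chromosome IV (13315644 to 13329314), at 0.58 to 1.83. In all, 21 runs of at least 3 neighbouring tested genes were called in one direction, 17 of them positive.

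F-box genes, whose products choose proteins for ubiquitination, contributed many wide differences at low levels. Of 217 tested, 35 were called positive (16.1%) and 3 negative, with a median of 0.59, and 32 of the 35 belonged to the fbxb subfamily, of which 87 were tested. Low genes can pass the filter through the somatic AID auxin libraries where they are high, which favours positive differences. How far this raised the share and the median was not tested. *fbxb-93* had 14.4, 11, 6.96 and 7.42 normalized counts in the neuronal strain without auxin and 8.31, 8.16, 6.9 and 13.8 with auxin. Its somatic counts were 4.76, 5.54, 3.58 and 5.41 without and 25.9, 31.1, 33.6 and 40.2 with auxin, so the somatic groups were apart and the difference was 2.61 (standard error 0.38, limma adjusted p = 8.5e-05). Several lie in clusters on chromosome II, such as *fbxb-49* and *fbxb-46*, at 2.66 and 2.44, both below 15 normalized counts in the 12 libraries other than somatic AID auxin. Among the F-box genes quantile normalization left 25 called positive, and a filter of 50 normalized counts, which takes out low genes, left 11, with a median of 0.20. The proteins of C-type lectin genes bind sugars and many are secreted, and of 86 such genes 12 were called positive (14%) and 4 negative, with *clec-196* at 2.7 (adjusted p = 2.6e-05) and *clec-222* at -0.81 (adjusted p = 0.0004). Of 147 detoxification genes 8 were called positive (5.4%) and 2 negative, close to the share of all genes.

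Markers of early embryos, which the mothers carry, rose after somatic AID in 22 of 38 cases, beside 16% of all genes. None was called after neuronal AID, near the share of 0.441% over all genes. Of these 38 early zygotic genes, 9 had a positive difference (23.7%) and none a negative one, with median responses of 0.93 after somatic and 0.35 after neuronal AID. The summed level was 5560 to 7120 normalized counts in the somatic AID auxin libraries and 3390 to 4210 in their controls, and 4860 to 5260 after neuronal AID against 4030 to 4410. The marker *sdz-1* was at 0 in all 4 libraries of the neuronal strain without auxin, and no other marker was at 0 in a whole group. *vet-6* had 257, 201, 277 and 304 normalized counts in the neuronal strain without auxin and 358, 363, 399 and 423 with auxin. RAGA-1::AID Somatic had 139.7, 158, 179 and 265 without and 932, 579.7, 769.5 and 838 with auxin, for a difference of 1.51 (standard error 0.25, limma adjusted p = 0.00025). The count of 9 was not stable, at 4 without somatic AID auxin replicate 4 or neuronal AID no auxin replicate 3 or 4, and 5 without any of 6 others. With no filter on low values 5 were called positive, and 6 with a filter of 50 normalized counts. As with the F-box genes, low members can pass the filter through the somatic AID auxin libraries. How far this raised the share was not tested. The part of embryos in the whole-animal differences was not tested.

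Muscle genes went both ways. Of 30 markers of body wall muscle, 8 were called positive (26.7%) and 2 negative, with a median of 0.26 and a summed level of 88400 to 94100 normalized counts after somatic AID against 71800 to 78200 in its controls. After neuronal AID the sum was 70900 to 74800 against 69900 to 76300, and no marker was at 0 in any group. The myosin light chain genes *mlc-3* and *mlc-2* differed by 0.52 (adjusted p = 8.5e-05) and 0.44 (adjusted p = 0.0004). *hlh-1*, the MyoD homologue that specifies muscle in embryos, had 16, 15.5, 16.5 and 9.89 normalized counts in the neuronal strain without auxin and 14.8, 20.4, 15.8 and 12.8 with auxin. It rose from 4.76, 9.23, 7.17 and 13.5 to 33.9, 39.3, 47.3 and 41.6 in the somatic strain, for a difference of 2.04 (standard error 0.38, limma adjusted p = 0.00077). *myo-3*, a body wall myosin heavy chain gene, went the other way. It had 995, 1098, 1173 and 1015 normalized counts in the neuronal strain without auxin and 1170, 1179, 1383 and 1390 with auxin, 1064, 1094, 1153 and 1071 in the somatic strain without auxin and 547, 1070, 689 and 524 with it, where replicate 2 was as high as the libraries without auxin. The difference of *myo-3* was -0.95 (standard error 0.21, limma adjusted p = 0.0027). Of 84 cuticle collagen genes, markers of the epidermis, 5 were called positive (6.0%) and 1 negative, and the median was -0.22, on the other side of 0 from most of the calls. With a filter of 50 normalized counts the median of the cuticle collagens was 0.18. The negative calls became 6 without somatic AID auxin replicate 2 and 4 without neuronal AID auxin replicate 1, and the positive calls 3 without neuronal AID no auxin replicate 3, neuronal AID auxin replicate 2 or somatic AID no auxin replicate 2. The sum of the collagens was 189000 to 203000 normalized counts after somatic AID, above 137000 to 188000 in its controls, and 123000 to 143000 after neuronal AID against 133000 to 150000. The gene *col-117* was at 0 in all libraries of the somatic strain. Of 15 sperm markers 1 was called, *ssp-37*, and of 12 pharynx markers 2, *pha-4* and *phat-6*.

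**Figure D4:**
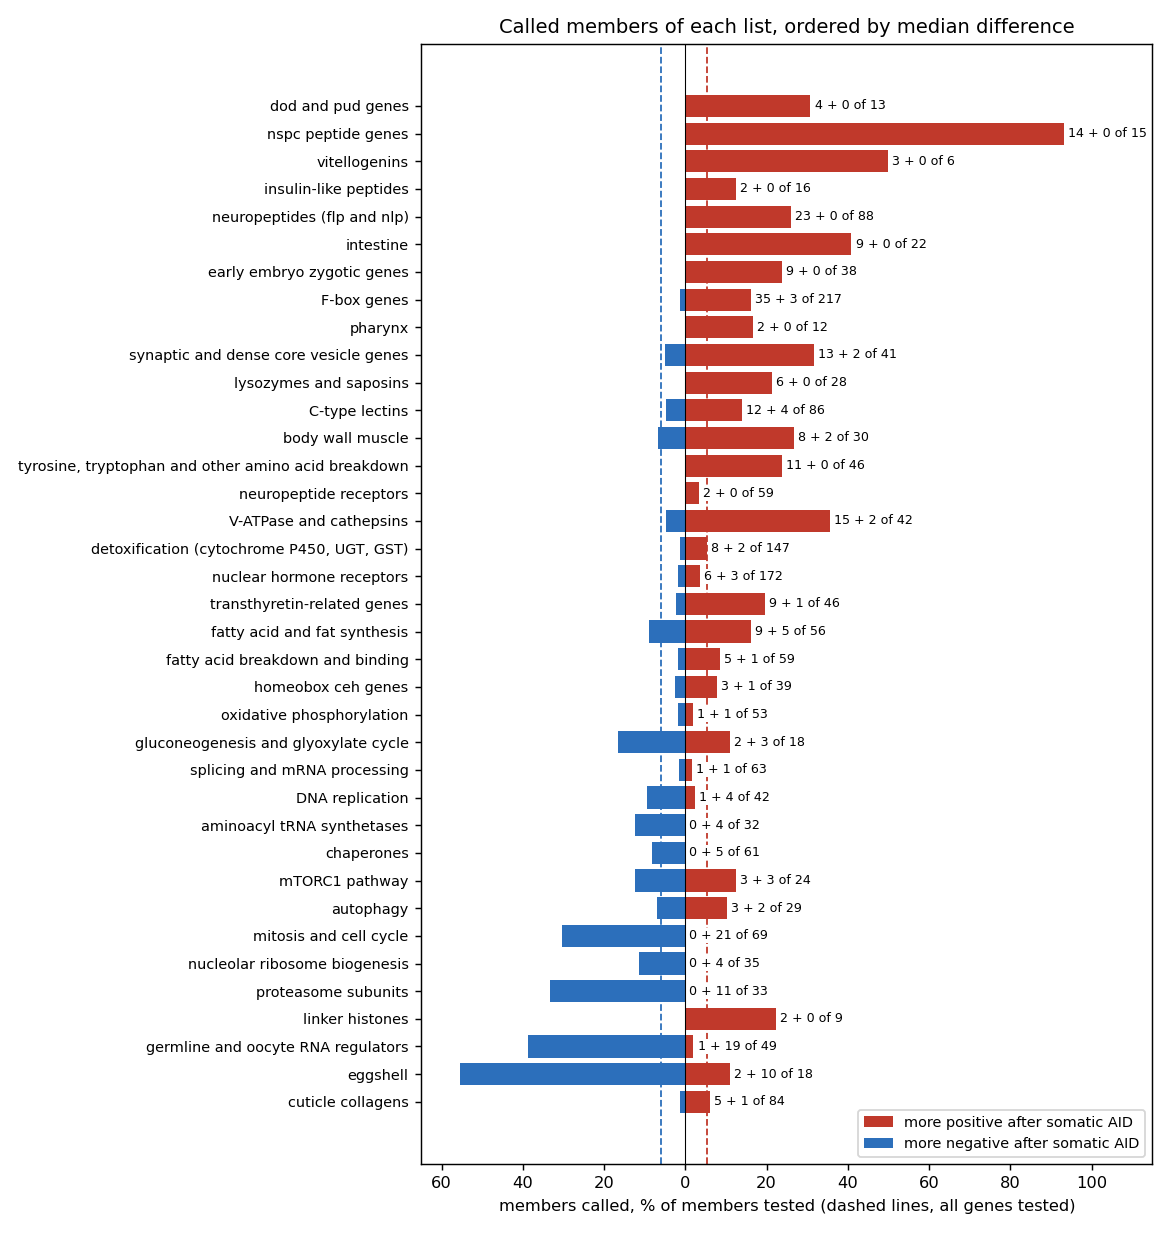
Share of tested members called (x axis, %) for the lists with at least 2 called members (rows, ordered from the lowest median difference at the bottom to the highest at the top). Red bars to the right are members with a positive difference and blue bars to the left members with a negative one, with both numbers and the number tested beside each bar. The dashed lines mark 5.22% and 6.02%, the shares over all 13150 genes. Blue bars pass their line in eggshell, germline, proteasome and mitosis genes, and red bars in nspc, vitellogenin, intestine, V-ATPase and neuropeptide genes.

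The remaining lists held fewer calls. Of 46 transthyretin-related genes, a family expanded in nematodes, 9 were called positive (19.6%) and 1 negative, with *ttr-24* at 0.69 (adjusted p = 5.9e-06), *ttr-47* at 0.53 (adjusted p = 6.7e-05) and *ttr-5* at 0.52 (adjusted p = 8.6e-05). Of 13 genes named dod or pud, the 4 pud genes above were the called ones, and the median was 1.09. Linker histones, which bind DNA between nucleosomes, had 2 positive calls among 9 genes, *hil-3* and *his-24*. *his-24* went from 416 ± 156 normalized counts (SD, n = 4) to 1961 ± 474 in the somatic strain and from 598 ± 85.3 to 1219 ± 198 in the neuronal one, a difference of 1.26 (adjusted p = 0.0021). Of 39 homeobox ceh genes 3 were called positive (7.7%) and 1 negative, and the 3 were genes with patterning roles in embryos or neurons. The counts of *ceh-36* and *ceh-51*, at 34.6 ± 8.95 and 41.2 ± 3.98 after somatic AID, were below 10 on average in each other AID group. Both may thus have entered the test through the somatic AID auxin group. In carbohydrate metabolism the aldolase gene *aldo-1* and *gpi-1* were called positive and *ipgm-1*, *gpd-4* and *enol-1* negative, of 18. Chaperones had 5 called negative of 61 (8.2%, beside 6.02% of all genes), led by the mitochondrial chaperone gene *hsp-60* at -0.33 (adjusted p = 3.9e-05). The 5 fell to 3 without neuronal AID no auxin replicate 1, 2 or 4 or somatic AID auxin replicate 1 or 4 and under TMM, and quantile normalization gave 3 in each direction. Of 42 genes of DNA replication 4 were negative and 1 positive, with a median of -0.06, and the 4 became 2 without any 1 of 8 AID libraries and under TMM. Nuclear hormone receptors had 6 positive and 3 negative calls of 172, with 6 negative without somatic AID auxin replicate 2. Of 32 chemoreceptors 1 was called, *sri-40*, and 3 without somatic AID no auxin replicate 4. Mitochondrial ribosomal proteins (*mrps-30*, of 66), MATH and BATH genes (*bath-40*, of 52) and translation factors (*iff-2*, of 26) had 1 call each, splicing genes (*hrpf-2* and *hrpl-1*, of 63) had 1 in each direction, and none of 17 globin genes was called.

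The list of the mTORC1 pathway also takes in transcription factors and genes of mTORC2. Of its 24 genes, 3 were called positive (12.5%) and 3 negative, and the median was -0.09. *pha-4*, the FoxA factor of the pharynx and gut, had 117, 79.5, 126.2 and 96.4 normalized counts in the neuronal strain without auxin and 133, 129, 141 and 144 with auxin. It rose from 88.9, 75.7, 100.4 and 90.6 to 274, 299, 251 and 362 in the somatic strain, a difference of 1.32 (standard error 0.22, limma adjusted p = 0.00026). The neuronal groups did not overlap either, though that change was not called (adjusted p = 0.21). *hlh-30*, the TFEB factor of lysosome and autophagy genes, differed by 0.35 (adjusted p = 0.00028), and *sgk-1*, a kinase downstream of mTORC2, by 0.84 (adjusted p = 0.0015). The called negative genes were *rict-1* (Rictor), *mlst-8* and *daf-15* (Raptor), at -0.25, -0.25 and -0.14, of which *daf-15* lost its call under TMM and quantile normalization and without any 1 of 7 AID libraries. The kinase genes *let-363* (TOR) and *rsks-1* (S6 kinase) were not called, at -0.05 and -0.10. Of 29 autophagy genes, *hlh-30*, *lgg-1* and *epg-2* were called positive and *atg-18* and *epg-4* negative. Without neuronal AID no auxin replicate 4, 5 autophagy genes were positive and 0 negative. Among the genes the study names for its expression data, the synaptic gene *cab-1* was called at 0.31 (adjusted p = 0.00068), and *plin-1*, *myo-2*, *frpr-5* and *tom-1* were not, at -0.01, 0.38, -0.16 and -0.25. The study reports these genes, *ges-1* and *cat-4* as changed after neuronal degradation of RAGA-1. That is another contrast, and a difference that was not called does not speak to it. The splicing factor gene *sfa-1* rose in the somatic response (0.34, adjusted p = 7e-05), and its difference of 0.28 (adjusted p = 0.021) was not called.

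A small set of genes responded more to neuronal than to somatic AID. The neuronal response was called and larger in size than the somatic one in 17 of the 1477 genes, 9 of which rose and 8 of which fell after neuronal AID. Among the 17 were 5 nspc genes, a family described below that differed between the strains without auxin. *lea-1*, a gene of a protein family that guards against desiccation, rose in both strains. It had 15840, 20530, 18400 and 19660 normalized counts in the neuronal strain without auxin and 52760, 52810, 47440 and 55390 with it. RAGA-1::AID Somatic had 14190, 17420, 17840 and 17720 without auxin and 22010, 29040, 19840 and 22650 with auxin, so the responses were 1.49 and 0.47 and the difference -1.02 (standard error 0.18, limma adjusted p = 0.0004). *C06E8.5* had 16, 12.2, 16.5 and 13 normalized counts in the neuronal strain without auxin and 48, 42.5, 54.2 and 27.7 with auxin. Its somatic counts were 17.5, 27.7, 15.5 and 17.6 without and 16.9, 8.13, 7.36 and 11.1 with auxin, which overlapped, and the difference was -2.31 (standard error 0.40, limma adjusted p = 0.00039). *ZK355.3* was close to absent outside neuronal AID, with 0, 3.31, 3.48 and 0.618 normalized counts in the neuronal strain without auxin and 12, 75.1, 36.5 and 33 with it, and 0, 7.38, 3.58 and 1.35 without auxin and 0.996, 0, 0 and 1.39 with auxin in the somatic strain. At such low counts the difference of -4.89 (standard error 0.92, limma adjusted p = 0.00078) moved with the pseudocount. It was -5.62 with 0.5 and -3.24 with 4 in place of 1, and stayed called with both. *ZK355.3* may have entered the test through the neuronal AID auxin group, the only AID group where it was high. How far this affected its call was not tested. In replicates 1 and 4 alone its difference was -3.54 and not called (limma adjusted p = 0.05). In replicates 2 and 3 alone it was -6.23 and called (limma adjusted p = 0.0025). *M01F1.4* rose after neuronal AID, by 0.34, and had a somatic response of -0.08 that was not called, with a difference of -0.42 (adjusted p = 8.6e-05). The transporter gene *pgp-5* went down, from 313, 409, 297 and 297 normalized counts in the neuronal strain to 187, 156, 211 and 223, beside 389, 446, 347 and 381 without auxin and 421, 470.0, 489 and 474 with auxin in the somatic strain, for a difference of 1.01 (standard error 0.18, limma adjusted p = 0.0004). *txt-11* also fell after neuronal AID, with a difference of 0.87 (adjusted p = 0.00078). *sod-3*, a mitochondrial superoxide dismutase gene and a known target of DAF-16, is not among these 17. It had 18.4, 29.8, 40 and 24.7 normalized counts in the neuronal strain without auxin and 45.2, 67.8, 52.2 and 43.7 with auxin, without overlap but not called (adjusted p = 0.077). In the somatic strain it went from 19.1, 29.5, 33.5 and 33.8 to 12.9, 12.2, 20 and 12.5, a fall that passed the test (adjusted p = 0.0038), and the difference was -1.85 (standard error 0.36, limma adjusted p = 0.001). It was the only 1 of 23 genes for superoxide dismutases, catalases and peroxiredoxins to be called.

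Of the 1477 genes, 3 had both responses called with opposite signs, *mec-12*, *nspc-13* and *nspc-20*, beside 11 genes with both called in one direction. *mec-12* encodes an alpha tubulin of the touch receptor neurons. It had 196, 172, 194 and 192 normalized counts in the neuronal strain without auxin and 107, 141, 145 and 127 with it, and 213, 179.9, 209 and 191 without auxin and 331, 263, 268 and 245 with auxin in the somatic strain. No 2 groups of the same strain overlapped, and the responses were -0.54 and 0.47 with a difference of 1.02 (standard error 0.14, limma adjusted p = 5.1e-05).

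The nspc genes, which encode a family of short peptides found in nematodes, stood out by their levels without auxin. All 15 tested members lie on chromosome X, and 14 had a called positive difference, between 0.67 and 2.13. Without auxin, 13 of the 15 were lower in RAGA-1::AID Somatic than in RAGA-1::AID Neuronal at the same threshold, while 23 of all 13150 genes (0.175%) differed between the strains in either direction. *nspc-20* had 363, 444, 435 and 399 normalized counts in the neuronal strain without auxin and 254, 320.0, 330.1 and 262 with it. RAGA-1::AID Somatic had 229, 199, 199.6 and 188 without and 339.7, 314, 329 and 336 with auxin, so the strains were apart without auxin and close with it, and the difference was 1.19 (standard error 0.12, limma adjusted p = 1e-06). *nspc-19* had 32, 44.2, 50.5 and 40.2 normalized counts in the neuronal strain without auxin and 24, 19.6, 16.8 and 24.5 with auxin, 12.7, 13.8, 15.5 and 8.11 in the somatic strain without auxin and 26.9, 25.7, 49.4 and 20.8 with it. It reached the widest difference of the family, 2.13 (standard error 0.33, limma adjusted p = 0.00014). Among the 14 called members the strains differed without auxin by -1.67 to -0.56 and with auxin by -0.42 to 0.50. After neuronal AID 7 of the 15 fell and after somatic AID 8 rose, beside 0.0913% and 16% of all genes. The exception was *nspc-5*, with 82.5, 91.7, 94 and 90.2 normalized counts in the neuronal strain without auxin and 52.6, 73.5, 38.4 and 54.3 with auxin and 50.8, 5.54, 17.9 and 0 without auxin and 6.97, 0, 11.6 and 0 with auxin in the somatic strain, which was low there with and without auxin (difference -0.76, adjusted p = 0.68). In wild type animals the responses of the 15 genes to auxin were -0.34 to 0.11. A strain difference in TIR1 transgene, background or RAGA-1 level without auxin cannot be told apart here, and near-identical family members may share reads.

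**Figure D5:**
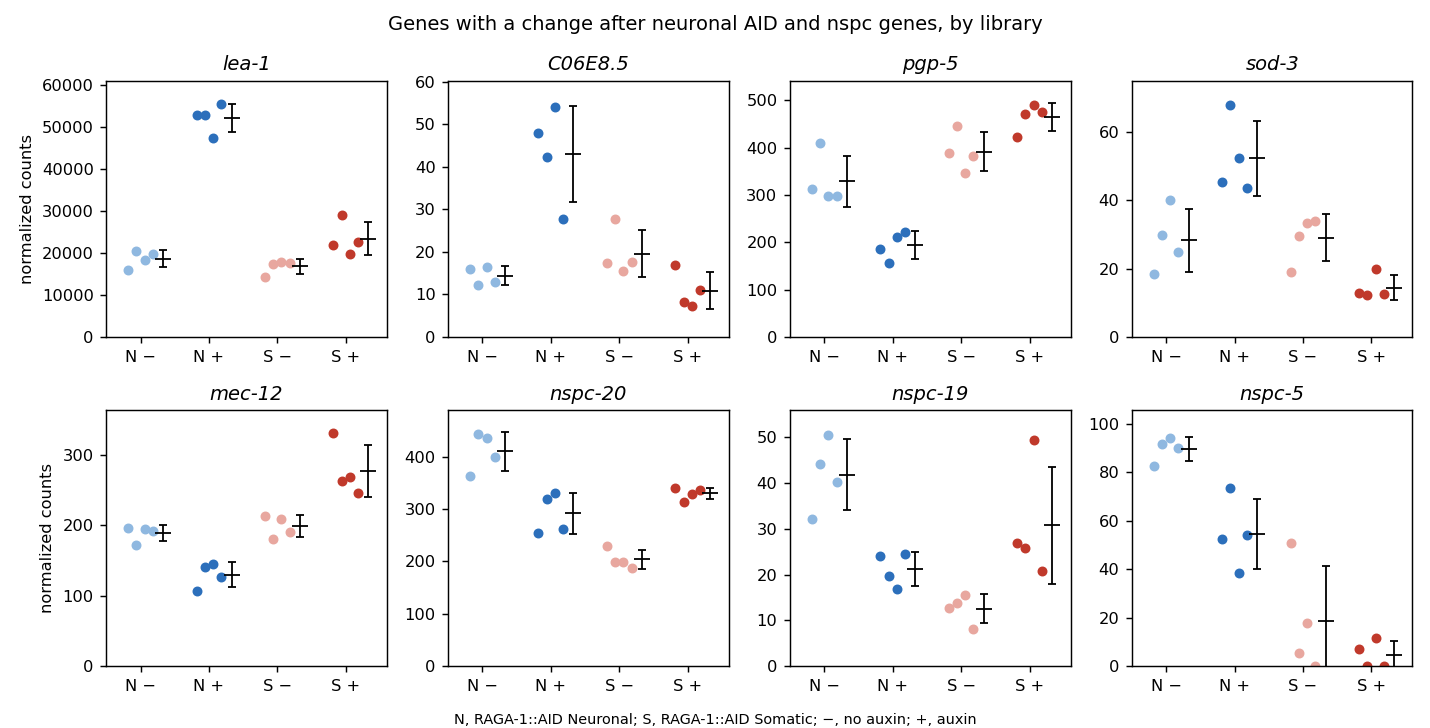
Normalized counts (y axis, from 0) of 8 genes in each library (points) of the 4 AID groups (x axis, N for RAGA-1::AID Neuronal, S for RAGA-1::AID Somatic, − without and + with auxin), with the group mean and SD beside them (n = 4). *lea-1* and *sod-3* are highest in the neuronal AID auxin libraries, *pgp-5* is lowest there, and *mec-12* and *nspc-20* move in opposite directions with auxin in the 2 strains.

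Called genes were spread unevenly over the chromosomes. On chromosome X, 173 of 1873 tested genes had a positive difference (9.24%) and 74 a negative one (3.95%), with a median of 0.12. On chromosomes I and III the order was the reverse, with 3.41% and 3.15% positive and 7.67% and 7.0% negative and medians of -0.06. Chromosomes II, IV and V lay between, at 4.62% to 6.00% positive and 4.93% to 6.34% negative. None of the 12 tested genes of mitochondrial DNA was called. These shares were not tested, since neighbouring genes and members of a family are not independent of each other.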

How the data were processed

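RNA-seq of whole animals was analysed for 24 libraries, of which the 16 of the 2 AID strains make up the comparison. Libraries were poly(A) selected, strand-specific and sequenced as paired 50 bp reads. Per the methods and the submitters' processing notes, the authors quantified transcripts with Salmon 1.4.0, used tximport to bring them to genes, and took size factors from DESeq2 1.34.0 (R 4.1.2) on WBcel235, Ensembl release 104, and FastQC 0.11.5, STAR 2.7.0 and MultiQC are also listed. Whether Salmon used strand is not given in the sources used here.

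The deposited signal is 1 normalized count per gene and library, a gene count divided by the size factor of the library. Whole reads were recovered from these values for 100% of entries at a tolerance of 0.01, except that in 1 library (somatic AID auxin replicate 1) the step is so near 1 that it cannot be told from rounding. Depth was 16982857 to 41671106 reads in the AID libraries, and reads that share a sequence with a paralog or an overlapping gene may be split in a way the table does not show. Gene names came from the Ensembl 115 annotation for 19793 IDs, 1918 were named by sequence name, 271 kept their ID, and 47 IDs share a symbol with another.

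Genes that reached 10 normalized counts in 4 or more libraries were fitted with limma 3.58.1 (R 4.3.3) on log2(normalized count + 1), with 6 group means over all 24 libraries, a trend in the prior variance and Benjamini-Hochberg adjustment over the 13150 genes, at a threshold of 0.01, which the study also used. The difference is the contrast of the 2 auxin responses. It shares its libraries with each response. Replicates came from separate days, and RNA was extracted from 2 replicates at a time.

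Genes named in the text are the 10 largest differences in each direction among called genes that averaged 50 or more normalized counts, the 5 with the smallest adjusted p, genes called with opposite signs in the responses, up to 10 with a larger neuronal response, for each of 46 lists the 3 called members of smallest adjusted p (all where 5 or fewer) and genes the study names (*gnsl-1* was not analysed here). Other named genes were chosen after their values were seen (*egl-21*, *unc-25*, *hlh-1*, *myo-3*, *pept-1*, *kynu-1*, *chs-1*, *acs-3*, *acs-5*, *acs-14*, *acs-13*, *acs-20*, *lbp-1*, *lbp-3*, *far-6*, *Y67H2A.9*, *vit-1*, *vit-3*, *vit-4*, *fat-3*, *fat-5*, *fat-6*, *fat-7*, *sfa-1*, *fbxb-46*, *fbxb-49*, *sgk-1*, *mlst-8*, *daf-15*, *nspc-5*, *sdz-1* and *col-117*). The members and lists were chosen with earlier results of these data known, and lists are described by counts and medians only. Scripts were tested on simulated data. Alternatives were other pseudocounts, filters, scalings (TMM and quantile), edgeR 4.0.16 and DESeq2 1.42.0 on the recovered reads, a replicate block, subsets of replicates and each AID library left out.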

Additional observations from a re-analysis of the deposited data

Results flagged for a closer look

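The response to auxin differed between the strains in 1477 genes by limma's interaction contrast. In 3 of these, both responses were called and had opposite signs. *nspc-20* and *nspc-13* each had a difference of 1.19 and *mec-12* one of 1.02.

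Among the 38 genes whose values are given by library, 8 of 152 groups of 4 libraries held 1 library far from the other 3 by Dixon's test, where chance gives about 1 in 20. *C10C5.3* and *C10C5.5* were high in neuronal AID auxin replicate 1, at 351.9 normalized counts against 146.8 to 155.5 and 169.9 against 71.36 to 85.72. *pud-1.2* was low in neuronal AID auxin replicate 4, at 1914 against 3069 to 3278. *hlh-1* was low in neuronal AID no auxin replicate 4, at 9.888 against 15.46 to 16.54. *pgp-5* was high in neuronal AID no auxin replicate 2, at 408.6 against 296.9 to 313.1. In the somatic strain, *lea-1* was low in no auxin replicate 1, at 14190 against 17420 to 17840, *C06E8.5* was high in no auxin replicate 2, at 27.68 against 15.54 to 17.58, and *sod-3* was high in auxin replicate 3, at 19.97 against 12.19 to 12.95. The difference of *C10C5.3* lost its call without either of 2 AID libraries, and those of the other genes stayed called without any 1.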

How the results depend on the processing

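Of the 1477 called genes, none was called with the other sign under any alternative tried, while the number called moved. A threshold of 0.05 gave 3001 genes (1334 positive and 1667 negative), and a minimum size of 1 on the log2 scale gave 268 (238 and 30). Replicates 1 and 4 alone gave 434 (242 and 192) and replicates 2 and 3 alone 128 (103 and 25). Leaving out 1 AID library gave 1037 to 1768 genes, with 514 to 759 positive and 523 to 1009 negative, the lowest of which came without somatic AID auxin replicate 4. Other pseudocounts, filters, scalings and tools stayed within 1.5 times the main counts. Quantile normalization turned the differences of *vit-5* (-0.063) and *vit-6* (-0.10) and ended 26 other calls among the 179 named genes. Of these 179, 153 kept their call without each AID library in turn and 26 lost it at least once, among them *C10C5.3*, *F15B9.6*, *cdr-4*, *F21C10.11*, *C08G9.2*, *mrps-30*, *pro-2*, *hrpl-1*, *cox-16*, *atp-2*, *epg-2*, *atg-18*, *epg-4*, *daf-28*, *sprr-2*, *npr-28*, *phat-6* and *daf-15*. On the recovered reads, edgeR called 1354 genes (702 positive and 652 negative) and DESeq2 1760 (831 and 929).

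The methods place replicates on separate days, but whether equal numbers in different groups share a day is not given in the sources used here. Of 24 correlations between the deviations of same-numbered libraries (-0.024 to 0.339), 19 were over 0.1, short of the 24 asked for to treat numbers as pairs, while 20 of 24 correlated best with their own number, a hint that numbers share a source. With the replicate number as a block, limma gave 2251 genes (1046 positive and 1205 negative), and edgeR gave 2112 (1077 positive and 1035 negative) with the same replicate block. The limma block called all 6 vitellogenins (3 without it), 10 nucleolar ribosome biogenesis genes (4), 19 proteasome subunits (11) and 18 amino acid breakdown genes (11).

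TMM raised the positive share of calls from 46.4% to 53.5%, and replicates 2 and 3 alone to 80.5%. The median standard error of the difference was 0.04 among called negative and 0.17 among called positive genes.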
